A study of Arabidopsis thaliana with 6 samples.

Results

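The genes described here are 37 *Arabidopsis thaliana* genes of jasmonate synthesis, jasmonate signalling and jasmonate-dependent stamen growth, chosen by gene identifier out of the 21799 genes with values in the expression table. They comprise 13 synthesis genes, 2 genes of jasmonate turnover, the receptor gene *COI1*, 11 *JAZ* repressor genes, 4 transcription factor genes (*MYC2*, *MYC3*, *MYC4* and *ORA47*), 3 stamen *MYB* genes and 3 output genes. RNA from whole inflorescences up to floral stage 12 was sequenced from the *stk ces-4 bee1 bee3* mutant and from wild type, 3 biological replicates each, and every replicate was a pool of plants. The mutant carries mutations in 4 transcription factor genes, the MADS-box gene *STK* (*SEEDSTICK*) and the related bHLH genes *CES* (*CESTA*), *BEE1* and *BEE3*, where *ces-4* is a T-DNA insertion in an exon of *CES*. The wild type was Col-0, and the study set up this comparison to find genes that act downstream of these factors in the transmitting tract of the pistil. Plants of both genotypes were grown at the same temperature in long days, and the labels list no hormone or wounding treatment. Since whole inflorescences were used, fewer cells of a type cannot be told apart from less RNA per cell, and a pool hides the variation between its plants.

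Jasmonate is a lipid-derived hormone made from linolenic acid in the plastid and the peroxisome. Its isoleucine conjugate is bound by the F-box protein COI1 together with a JAZ repressor, the JAZ protein is degraded, and MYC transcription factors that JAZ proteins hold inactive are released. *JAZ* genes and several synthesis genes are themselves induced by jasmonate, and wounding or touch raises the hormone within minutes. In flowers jasmonate is known for its role in the stamen, where it is required for filament elongation, pollen maturation and anther opening, acting in part through MYB21, MYB24 and MYB57.

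All values are the deposited CPM, read counts scaled to the depth of the library, and differences are log2 fold changes of CPM + 0.5, mutant minus wild type, with the moderated standard error (SE) of limma. A gene was called at a Benjamini-Hochberg adjusted p under 0.05 over the 21287 genes that exceeded 0.5 CPM in 3 or more samples. All 37 genes passed this filter. Between 15.9 and 21.2 M reads per sample fell on the listed genes, so that 3 reads, the detection floor used here, correspond to 0.137 to 0.185 CPM, which covers counting error only. The 4 mutated genes were all called, with mutant means of 3.54% to 25.2% of the wild-type means. The floral identity genes *AP1*, *AP3*, *PI*, *AG* and *SEP3* were present in every sample, with a summed level of 743 to 806 CPM in the mutant and 662 to 754 CPM in wild type.

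A library of each genotype stood apart in stress-related genes. The summed level of 18 touch and early wound genes was 802, 720 and 1120 CPM in mutant replicates 1, 2 and 3, against 730, 1997 and 755 CPM in wild-type replicates 1, 2 and 3. Mutant replicate 3 was the highest mutant sample for 15 of these 18 genes, and wild-type replicate 2 was the highest wild-type sample for 17 of 18. The summed level of 10 late pollen genes was lowest in wild-type replicate 2 among the wild-type samples, with 4498, 3382 and 4743 CPM in replicates 1, 2 and 3. In the mutant it was 4067, 4657 and 3938 CPM, so that replicate 3 was close to replicate 1. Whether mutant replicate 1 or 3 was the lower differed between these genes. No sample had a late pollen gene at 0. The summed level of 6 tapetum genes was 1353, 1683 and 1604 CPM in the mutant replicates and 1829, 1879 and 1442 CPM in the wild-type replicates, and wild-type replicate 2 was the highest wild-type sample for 6 of 6. Most of this sum was *ATA20*, with 1204, 1509 and 1448 CPM in the mutant replicates and 1673, 1692 and 1311 CPM in the wild-type replicates. The log2 fold change was above 0 for 3 of the 6 tapetum genes. For 5 photosynthesis genes of green tissue the sums were 6099, 5617 and 4500 CPM in the mutant replicates and 5223, 5192 and 5168 CPM in the wild-type replicates. Most of this was *RBCS1A*, with 3762, 3443 and 2750 CPM in the mutant replicates and 3036, 2902 and 3040 CPM in the wild-type replicates. It was the only 1 of the 5 genes with a log2 fold change above 0. For 6 genes of the anther wall and its opening the sums were 38.1 to 41.3 CPM in the mutant and 28.1 to 38.7 CPM in wild type. The part of touch, wounding or floral stage in the results below was not tested. Values without these libraries follow for some genes only, and other fold changes may also move when they are left out.

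Of the 37 genes, 1 was called, against 0.695% of all tested genes. This gene, *ORA47*, was higher in the mutant, and 0.132% of all tested genes were called as higher. At an unadjusted p under 0.05 there were 4 of the 37 genes (*ORA47*, *LOX2*, *VSP2* and *TAT3*), against 9.31% of all tested genes. All 3 mutant values lay above all 3 wild-type values for 5 genes, against 6.92% of all tested genes, and below them for 2 genes, against 7.41%. The log2 fold change was above 0 for 24 of the 37 genes, against 52.1% of all tested genes, with a median of 0.09 for the 37 genes and 0.01 for all tested genes. The 36 genes that were not called had log2 fold changes from -0.94 to 0.46. The 95% interval of the limma fit, not adjusted for the number of genes, lay within a 2-fold change in either direction for 30 of the 37 genes and within a 1.5-fold change for 18. Without mutant replicate 3 and wild-type replicate 2 together, the median over the 37 genes was 0.09, 24 were above 0, and *ORA47* was still the only called gene of the 37. Without wild-type replicate 2 alone the median was 0.28, and without mutant replicate 3 alone it was 0.03. Without wild-type replicate 3 the median turned to -0.04, with 18 of the 37 genes above 0.

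**Figure D1:**
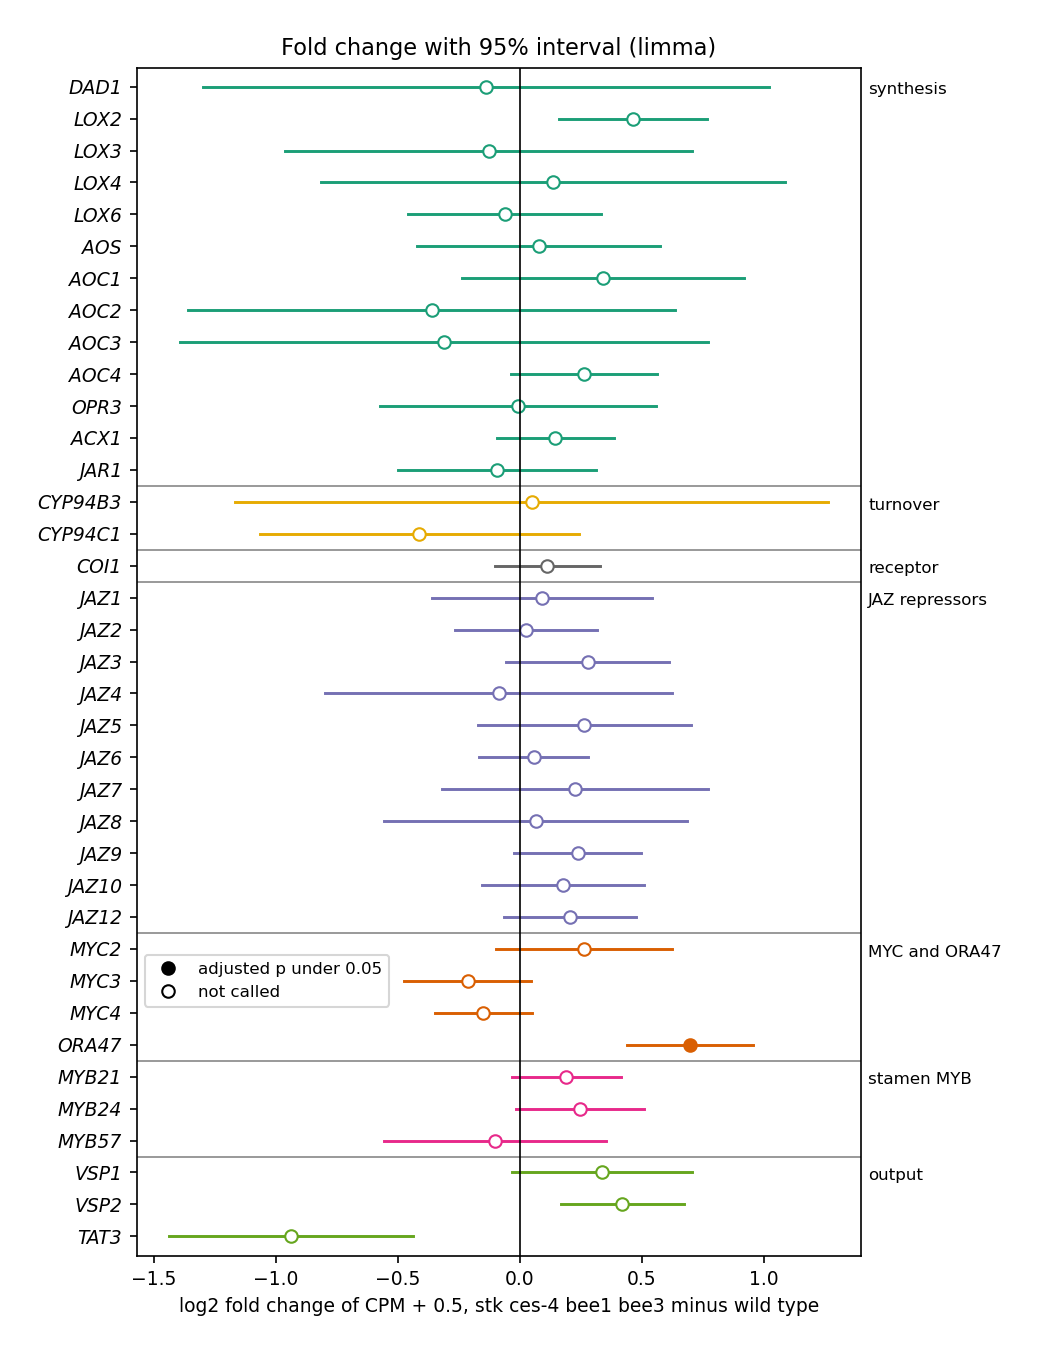
Log2 fold change of CPM + 0.5 (horizontal axis, mutant minus wild type) of the 37 genes by role, with points for the limma estimate and bars for its 95% interval over 3 samples per genotype. The filled point marks *ORA47* at 0.70, the only called gene, and *TAT3* at -0.94 lies farthest to the left.

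*ORA47* (*AT1G74930*) encodes an AP2/ERF transcription factor that activates jasmonate synthesis genes when overexpressed. It lies on chromosome 1 (chr1:28143851-28145058, plus strand, TAIR10.1). Its level was 105, 109 and 108 CPM in mutant replicates 1, 2 and 3, against 61.8, 79.4 and 58.6 CPM in wild-type replicates 1, 2 and 3. The lowest mutant sample was above the highest wild-type sample, and the mutant samples differed little among themselves. The means were 107 ± 2.44 CPM in the mutant and 66.6 ± 11.2 CPM in wild type (SD, n = 3 each), and the log2 fold change was 0.70 (limma SE 0.11, adjusted p = 0.0314). Wild-type replicate 2 was the wild-type sample closest to the mutant. Without it the log2 fold change was 0.83 (limma adjusted p = 0.00118), and without it and mutant replicate 3 it was 0.82 (limma adjusted p = 0.00169). The call was lost when any other sample was left out, with limma adjusted p of 0.141, 0.141 and 0.0985 without mutant replicates 1, 2 and 3, and of 0.146 and 0.10 without wild-type replicates 1 and 3. The log2 fold change stayed between 0.61 and 0.83 over these fits. The call was also lost without the mean-variance trend (limma adjusted p = 0.0929), and *ORA47* was called in 8 of 15 alternative fits in all.

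*ORA47* is 382 kb from *BEE3* on chromosome 1 and 3.52 kb from *JAZ2*. The neighbour *JAZ2* (*AT1G74950*), a jasmonate repressor gene, had 59.1, 58.4 and 72.8 CPM in the mutant replicates and 64.3, 70.6 and 52.3 CPM in the wild-type replicates, with overlapping groups and a log2 fold change of 0.03 (SE 0.13). Within 500 kb of *BEE3*, 2 of 265 tested genes were called, *ORA47* included, which was 0.755%, against 0.695% of all tested genes. *LOX4*, *JAZ2* and *JAZ6* lie in the same window, and *JAZ1*, *LOX3* and *JAZ5* lie within 500 kb of *BEE1*. Whether sequence linked to the mutated loci differs from Col-0 there was not tested.

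**Figure D2:**
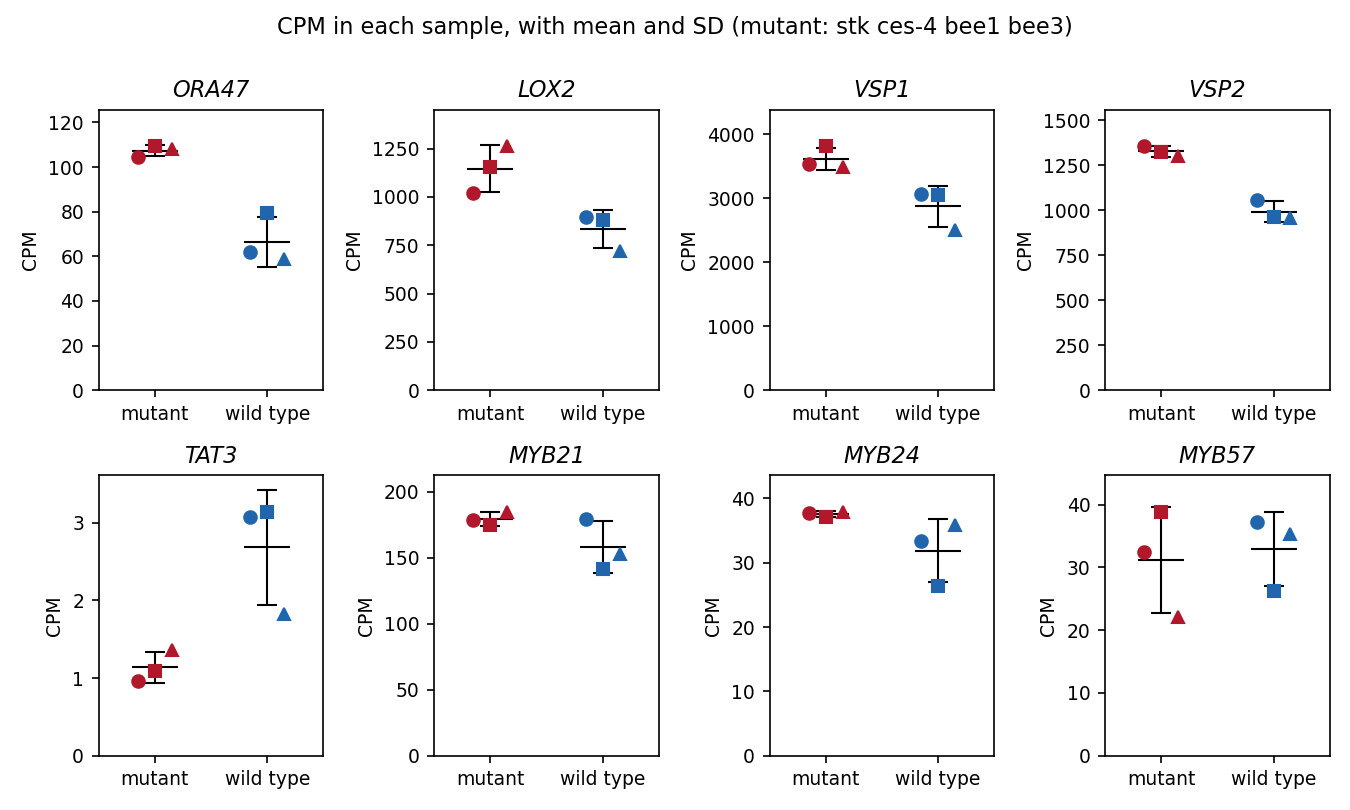
CPM (vertical axes, from 0) in each of 3 mutant samples (left, red) and 3 wild-type samples (right, blue), with circles, squares and triangles for replicates 1, 2 and 3, horizontal lines for means and bars for SD. The *ORA47*, *LOX2*, *VSP1*, *VSP2* and *MYB24* values of the mutant lie above all wild-type values, those of *TAT3* below, and those of *MYB21* and *MYB57* overlap.

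The synthesis genes follow the pathway from lipid release to conjugation, and none of the 13 was called by limma (adjusted p from 0.256 to 0.997). At an unadjusted p under 0.05 there was 1, *LOX2*. Of all tested genes 0.695% were called and 9.31% had an unadjusted p under 0.05. *LOX2* (*AT3G45140*), a plastid 13-lipoxygenase that oxygenates linolenic acid, was the most abundant of the 13 per length. It had 1021, 1156 and 1262 CPM in mutant replicates 1, 2 and 3, against 897, 881 and 720 CPM in the wild-type replicates. All mutant samples were higher than all wild-type samples. The means were 1146 ± 120 CPM in the mutant and 833 ± 98.1 CPM in wild type (SD, n = 3 each), and the log2 fold change was 0.46 (SE 0.13), which did not pass (limma adjusted p = 0.256). *DAD1* (*AT2G44810*), a phospholipase known from anther opening that releases linolenic acid in stamen filaments, was the most variable. It had 1.1, 0.173 and 3.42 CPM in the mutant replicates and 1.2, 1.48 and 1.18 CPM in the wild-type replicates. Mutant replicate 2 was at the level of 3 reads and mutant replicate 3 was the highest of all samples, and the log2 fold change was -0.14 (SE 0.52).

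The other 13-lipoxygenase genes were *LOX3* (*AT1G17420*), *LOX4* (*AT1G72520*) and *LOX6* (*AT1G67560*). *LOX3* had 141, 146 and 291 CPM in the mutant replicates and 153, 362 and 140 CPM in the wild-type replicates. *LOX4* had 66, 62.2 and 140 CPM in the mutant replicates and 56.0, 153 and 50.5 CPM in the wild-type replicates. Both genes were about level in 4 samples and high in mutant replicate 3 and wild-type replicate 2, so the genotypes overlapped, with log2 fold changes of -0.13 (SE 0.37) for *LOX3* and 0.13 (SE 0.42) for *LOX4*. These were 0.31 and 0.64 when wild-type replicate 2 was omitted, and -0.47 and -0.24 when mutant replicate 3 was omitted. *LOX6* ranged from 79.8 to 123 CPM in the mutant and from 81.8 to 120 CPM in wild type. *AOS* (*AT5G42650*), allene oxide synthase, ranged from 39.7 to 61.1 CPM in the mutant and from 36.3 to 62.6 CPM in wild type.

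Allene oxide cyclase, which fixes the stereochemistry of the jasmonate precursor, is encoded by 4 genes. *AOC1* (*AT3G25760*), *AOC2* (*AT3G25770*) and *AOC3* (*AT3G25780*) stand side by side on chromosome 3 with 1.33 and 1.09 kb between them, and *AOC4* (*AT1G13280*) is on chromosome 1. Because RSEM splits reads that match several copies, the values of the 3 neighbouring copies are uncertain relative to each other. *AOC3* had 22.8, 21.8 and 51.7 CPM in the mutant replicates and 24.4, 85.2 and 23.8 CPM in the wild-type replicates. *AOC2* was lower, with 5.22, 4.72 and 10.3 CPM in the mutant replicates and 6.16, 18.5 and 4.90 CPM in the wild-type replicates. Both copies were 2.07 to 2.32 times as high in mutant replicate 3 as in the mean of the other mutant samples, and 3.34 to 3.53 times as high in wild-type replicate 2 as in the mean of the other wild-type samples. *AOC4* did not show this, with ratios of 0.848 and 1.05. Per kilobase of annotated exon, *AOC4* was the highest copy with 83.5 CPM in the mutant and 69.8 CPM in wild type, and *AOC2* the lowest with 5.18 CPM in the mutant and 7.58 CPM in wild type.

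The later steps take place in the peroxisome and the cytosol. *OPR3* (*AT2G06050*), the OPDA reductase without which stamens are infertile, had 127, 113 and 188 CPM in the mutant replicates and 118, 208 and 110 CPM in the wild-type replicates. The log2 fold change was -0.01 (SE 0.25), and the same 2 libraries were the high ones. With wild-type replicate 2 left out it was 0.28, and with mutant replicate 3 left out it was -0.22. *ACX1* (*AT4G16760*), an acyl-CoA oxidase of beta-oxidation, averaged 167 ± 14.9 CPM in the mutant and 151 ± 17.1 CPM in wild type (SD, n = 3 each). *JAR1* (*AT2G46370*), which conjugates jasmonate to isoleucine, averaged 80.6 ± 14.5 CPM in the mutant and 86.7 ± 20.1 CPM in wild type (SD, n = 3 each). The synthesis genes had a median log2 fold change of -0.01, with 6 of 13 above 0. Without wild-type replicate 2 there were 12 of 13 above 0 and the median was 0.29, and without mutant replicate 3 there were 4 of 13 and the median was -0.22. Without both libraries 7 of 13 were above 0 and the median was 0.06.

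The 2 turnover genes encode cytochrome P450 enzymes that oxidise the active conjugate. *CYP94B3* (*AT3G48520*), the hydroxylase of jasmonoyl-isoleucine, had the largest spread of the 37 genes over the 6 samples. It had 9.72, 6.44 and 37.6 CPM in the mutant replicates and 10.8, 20.3 and 9.96 CPM in the wild-type replicates. Mutant replicate 3 alone set the mutant mean of 17.9 CPM above the wild-type mean of 13.7 CPM, and the log2 fold change of 0.05 (SE 0.54) became -0.68 (SE 0.30) without it. *CYP94C1* (*AT2G27690*), which oxidises the conjugate further, had 8.85, 8.46 and 14.8 CPM in the mutant replicates and 11.5, 22.3 and 10.5 CPM in the wild-type replicates. Its groups overlapped as well, with a log2 fold change of -0.41 (SE 0.29). The median of the 2 genes was -0.18, and it became 0.14 without wild-type replicate 2 and -0.67 without mutant replicate 3. Neither gene was called (limma adjusted p = 0.990 and 0.751).

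Looking across roles, mutant replicate 3 was over 1.5 times the mean of mutant replicates 1 and 2 for 9 of the 37 genes, against 3.48% of all tested genes. Wild-type replicate 2 was over 1.5 times the mean of wild-type replicates 1 and 3 for 13 of the 37, against 5.49%. Both held for 8 genes (*LOX3*, *LOX4*, *AOC2*, *AOC3*, *OPR3*, *CYP94B3*, *CYP94C1* and *JAZ8*), against 1.22% of all tested genes. In these 8 genes the ratios were 1.57 to 4.66 in mutant replicate 3 and 1.79 to 3.53 in wild-type replicate 2. The limit of 1.5 and these libraries were chosen after the values were seen, so the counts in this paragraph are a description only. Mutant replicate 3 was the highest mutant sample for 30 of the 37 genes, against 34.8% of all tested genes, and wild-type replicate 2 was the highest wild-type sample for 24 of the 37, against 36.6%. Of the touch and early wound genes, 8 of 18 were over 1.5 times in mutant replicate 3 and 17 of 18 in wild-type replicate 2. Of all samples, wild-type replicate 2 had the fewest reads on listed genes, 15.9 M, while mutant replicate 3 lay between the other mutant samples with 19.2 M.

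**Figure D3:**
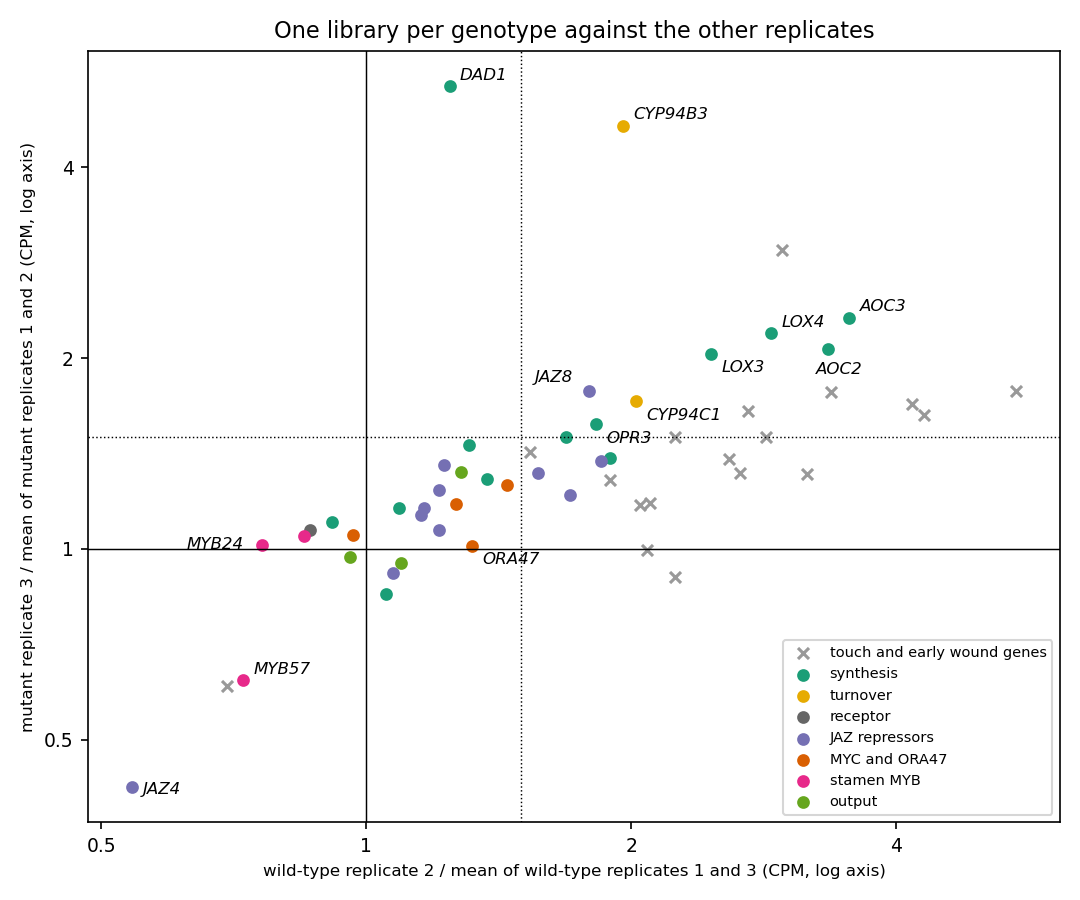
Ratio of mutant replicate 3 to the mean of mutant replicates 1 and 2 (vertical log axis) against the ratio of wild-type replicate 2 to the mean of wild-type replicates 1 and 3 (horizontal log axis), coloured by role, with crosses for the touch and early wound genes and dotted lines at 1.5. The 8 coloured points beyond both dotted lines are mostly synthesis and turnover genes, 8 of the 18 crosses lie there too, *DAD1* is beyond the horizontal line alone, and *ORA47* is near 1 in the mutant direction with a ratio of 1.01.

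*COI1* (*AT2G39940*), the F-box receptor subunit, was even across all samples. It had 38.1, 36.4 and 39.9 CPM in the mutant replicates and 35.4, 31.9 and 38.7 CPM in the wild-type replicates. The groups overlapped, the log2 fold change was 0.11 (limma SE 0.10, adjusted p = 0.802), and the 95% interval was -0.10 to 0.33. Leaving out its lowest sample, wild-type replicate 2, gave a log2 fold change of 0.04.

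The *JAZ* genes encode repressors that bind MYC proteins and are degraded in the presence of the hormone. None of the 11 was called by limma (adjusted p from 0.594 to 0.979), against 0.695% of all tested genes. Of the 11, 0 had an unadjusted p under 0.05, against 9.31% of all tested genes. The genotypes overlapped for all 11. Over all tested genes the mutant values lay wholly above the wild-type values for 6.92% and wholly below for 7.41%. The log2 fold changes of the *JAZ* genes ran from -0.09 to 0.28, with a median of 0.18. Of the 11, 10 were above 0, against 52.1% of all tested genes. Without wild-type replicate 3 there were 7 of 11 above 0 with a median of 0.07, and without mutant replicate 3 there were 8 of 11 with a median of 0.08. Without wild-type replicate 2 there were 10 of 11 with a median of 0.31, and without it and mutant replicate 3 together 10 of 11 with a median of 0.18. *JAZ9* (*AT1G70700*) was the most abundant per length, at 371, 348 and 406 CPM in the mutant replicates and 335, 350 and 273 CPM in the wild-type replicates. The lowest mutant sample was just below the highest wild-type sample, with a log2 fold change of 0.24 (SE 0.12). *JAZ4* (*AT1G48500*) was the least abundant and the most variable, at 0.642, 1.03 and 0.352 CPM in the mutant replicates and 1.33, 0.493 and 0.484 CPM in the wild-type replicates. The lowest of these values is a few reads above the level of 3 reads.

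The other *JAZ* genes lay between these levels. *JAZ1* (*AT1G19180*) and *JAZ6* (*AT1G72450*) averaged 186 ± 31.0 and 196 ± 9.51 CPM in the mutant, against 178 ± 53.3 and 189 ± 21.5 CPM in wild type (SD, n = 3 each). *JAZ12* (*AT5G20900*) averaged 126 ± 6.73 CPM in the mutant and 110 ± 17.9 CPM in wild type. Wild-type replicate 2 was over 1.5 times the mean of the other wild-type samples for *JAZ1*, *JAZ5* (*AT1G17380*), *JAZ7* (*AT2G34600*) and *JAZ8* (*AT1G30135*), and mutant replicate 3 was so for *JAZ8* alone. *JAZ5* had 81.0, 80.2 and 98.1 CPM in the mutant replicates and 62.2, 102 and 57.7 CPM in the wild-type replicates. Without wild-type replicate 2 its log2 fold change was 0.52 (limma adjusted p = 0.0804), against 0.26 (limma adjusted p = 0.767) with all samples. *JAZ3* (*AT3G17860*) and *JAZ10* (*AT5G13220*) had log2 fold changes of 0.28 and 0.18 (SE 0.15 each). *JAZ7* and *JAZ8* were low, with 5.87 to 9.06 and 2.24 to 4.68 CPM in the mutant and 4.95 to 9.25 and 2.48 to 4.44 CPM in wild type.

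MYC proteins bind the G-box CACGTG and close variants, and the 500 bases upstream of each annotated gene start were searched for it in the TAIR10.1 sequence of RefSeq, on both strands. The G-box was found for 6 of the 11 *JAZ* genes and 9 of the 37 genes, against 10.3% of the 21101 tested genes with a position. It was also found for 7 of the 44 other jasmonate genes described below, among them 5 of 12 signalling genes. AACGTG was found for 12 of the 37 genes against 13.3%, and CACATG for 11 of the 37 against 20.9%. These 3 hexamers differ from each other and cannot cover the same 6 bases. At least 1 of them was present for 10 of the 11 *JAZ* genes and 24 of the 37 genes, against 37.9% of all tested genes with a position. None of them was found for *ORA47*, *AOC2*, *AOC3*, *OPR3* or *CYP94B3*. The same was true of *LOX6*, *COI1*, *JAZ4*, *MYC3*, *MYC4*, *MYB21*, *MYB57* and *VSP2*. Of the 8 genes high in both libraries, 4 had at least 1. The G-boxes of the *JAZ* genes are printed here with the bases around each, 5′ to 3′ on the strand of the gene, as the set of members that most often held this motif. The capitals mark the G-box.
*JAZ2* (chr1:28150487-28150532, minus strand): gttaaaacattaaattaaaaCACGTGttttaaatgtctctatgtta
*JAZ3*, distal (chr3:6119547-6119592, plus strand): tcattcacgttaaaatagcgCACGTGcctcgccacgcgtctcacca
*JAZ3*, proximal (chr3:6119605-6119650, plus strand): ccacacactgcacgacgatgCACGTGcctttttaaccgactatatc
*JAZ6* (chr1:27277015-27277060, minus strand): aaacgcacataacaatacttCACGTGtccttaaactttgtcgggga
*JAZ7* (chr2:14572976-14573021, plus strand): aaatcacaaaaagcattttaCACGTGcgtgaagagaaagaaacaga
*JAZ8* (chr1:10596322-10596351, plus strand): gtgtggaaaaaaacattttcCACGTGagag
*JAZ9* (chr1:26654143-26654188, plus strand): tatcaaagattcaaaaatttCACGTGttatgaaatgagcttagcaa

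The last base of the G-box was 5 bases upstream of the annotated start in *JAZ8*, 29 in *JAZ7*, 61 in *JAZ2*, 77 and 135 in *JAZ3*, 361 in *JAZ9* and 473 in *JAZ6*. The CES, BEE1 and BEE3 proteins belong to the bHLH family, whose general motif is the E-box CANNTG, and STK to the MADS family, whose motif is the CArG-box. An E-box was present upstream of 28 of the 37 genes, against 80.6% of the tested genes with a position, and a strict CArG-box upstream of 1 of the 37, *MYC3*, against 4.44%. Neither was found upstream of *ORA47* in this window. A match is a description of the sequence, and no match says only that these letters are not in the 500 bases searched.

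The MYC genes encode the bHLH factors that JAZ proteins repress. *MYC2* (*AT1G32640*) was the most abundant of the 4 transcription factor genes per length, with 340, 319 and 415 CPM in the mutant replicates and 261, 379 and 262 CPM in the wild-type replicates. The same 2 libraries were high, the groups overlapped, and the log2 fold change was 0.26 (limma SE 0.16, adjusted p = 0.692). It was 0.44 without wild-type replicate 2, 0.15 without mutant replicate 3, and 0.17 and 0.18 without wild-type replicates 1 and 3. *MYC3* (*AT5G46760*) averaged 52.6 ± 5.07 CPM in the mutant and 61.2 ± 8.68 CPM in wild type (SD, n = 3 each). *MYC4* (*AT4G17880*) averaged 20.3 ± 0.593 CPM in the mutant and 22.6 ± 0.565 CPM in wild type (SD, n = 3 each). All *MYC4* values of the mutant lay below all wild-type values, but the log2 fold change of -0.15 (SE 0.09) did not pass (limma adjusted p = 0.675).

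The stamen *MYB* genes encode R2R3-MYB factors that act after jasmonate in filament growth and petal and stamen maturation. *MYB21* (*AT3G27810*), the most abundant of the 3 per length, had 179, 175 and 185 CPM in the mutant replicates, against 179, 141 and 153 CPM in the wild-type replicates. *MYB24* (*AT5G40350*) had 37.8, 37.1 and 37.9 CPM in the mutant replicates and 33.4, 26.4 and 35.9 CPM in the wild-type replicates. *MYB57* (*AT3G01530*) had 32.4, 38.9 and 22.1 CPM in the mutant replicates and 37.3, 26.3 and 35.3 CPM in the wild-type replicates. Mutant and wild-type values did not overlap for *MYB24*, overlapped for *MYB21* by a single wild-type sample, and overlapped widely for *MYB57*. The log2 fold changes were 0.19 (SE 0.10), 0.25 (SE 0.12) and -0.10 (SE 0.20) for *MYB21*, *MYB24* and *MYB57*, and the limma adjusted p were 0.628, 0.574 and 0.937. Wild-type replicate 2 was the lowest wild-type sample for all 3 genes, as it was for the late pollen sum. Without it the log2 fold changes were 0.11 for *MYB21*, 0.12 for *MYB24* and -0.25 for *MYB57*, and without wild-type replicate 1 *MYB21* was at 0.29. Without mutant replicate 3 *MYB57* was at 0.12. Mutant replicate 3 was the lowest mutant sample for *MYB57* only and the highest for the other two. The 95% intervals were -0.03 to 0.42 for *MYB21*, -0.02 to 0.51 for *MYB24* and -0.56 to 0.35 for *MYB57*.

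Some of these genes overlap others on the opposite strand. All 2591 bases of *MYB24* lie within *AT5G40348*, which had 41.6, 38.8 and 34.2 CPM in the mutant replicates and 32.9, 28.2 and 39.4 CPM in the wild-type replicates. *MYC2* shares 3241 bases with *AT1G32630*, at 6.79 to 9.26 CPM in the mutant and 8.23 to 9.74 CPM in wild type, and *MYB21* shares 987 bases with *AT3G27809*. *ORA47* shares 102 bases with *AT1G74929*, a gene without values in the expression table. The library kit keeps strand, but the strand setting of the counting is not given in the sources used here, so the values of *MYB24* and its partner may not be separate. The same limit holds for the other overlapping genes, *ORA47* included, over the bases they share.

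The output genes are known as markers of jasmonate response in leaves. *VSP1* (*AT5G24780*), a vegetative storage protein gene, was the most abundant of the 37 genes per length. It had 3535, 3809 and 3490 CPM in mutant replicates 1, 2 and 3, against 3062, 3046 and 2506 CPM in the wild-type replicates. Its tandem neighbour *VSP2* (*AT5G24770*), 5.37 kb away, had 1354, 1324 and 1298 CPM in the mutant replicates, against 1057, 963 and 954 CPM in the wild-type replicates. For both genes every mutant sample was higher than every wild-type sample, and neither difference passed. The log2 fold change was 0.34 (limma SE 0.16, adjusted p = 0.593) for *VSP1* and 0.42 (limma SE 0.11, adjusted p = 0.204) for *VSP2*. Mutant replicate 3 was the lowest mutant sample for both, whereas it was the highest for 12 of the 13 synthesis genes, all but *AOC4*. Reads that match both copies were divided by RSEM, so these are not independent measurements.

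*TAT3* (*AT2G24850*), a tyrosine aminotransferase gene induced by wounding and jasmonate, was found at a low level. It had 0.962, 1.09 and 1.36 CPM in the mutant replicates, against 3.08, 3.14 and 1.83 CPM in the wild-type replicates. The groups did not overlap. The means were 1.14 ± 0.202 CPM in the mutant and 2.69 ± 0.741 CPM in wild type (SD, n = 3 each), and the log2 fold change was -0.94 (SE 0.22), which did not pass (limma adjusted p = 0.147). Over the fits with another setting or a sample left out, the log2 fold change of *TAT3* was -1.15 to -0.77 with limma adjusted p of 0.0803 to 0.463. That of *VSP2* was 0.39 to 0.47 with limma adjusted p of 0.142 to 0.595, and that of *LOX2* was 0.36 to 0.54 with limma adjusted p of 0.226 to 0.690.

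**Figure D4:**
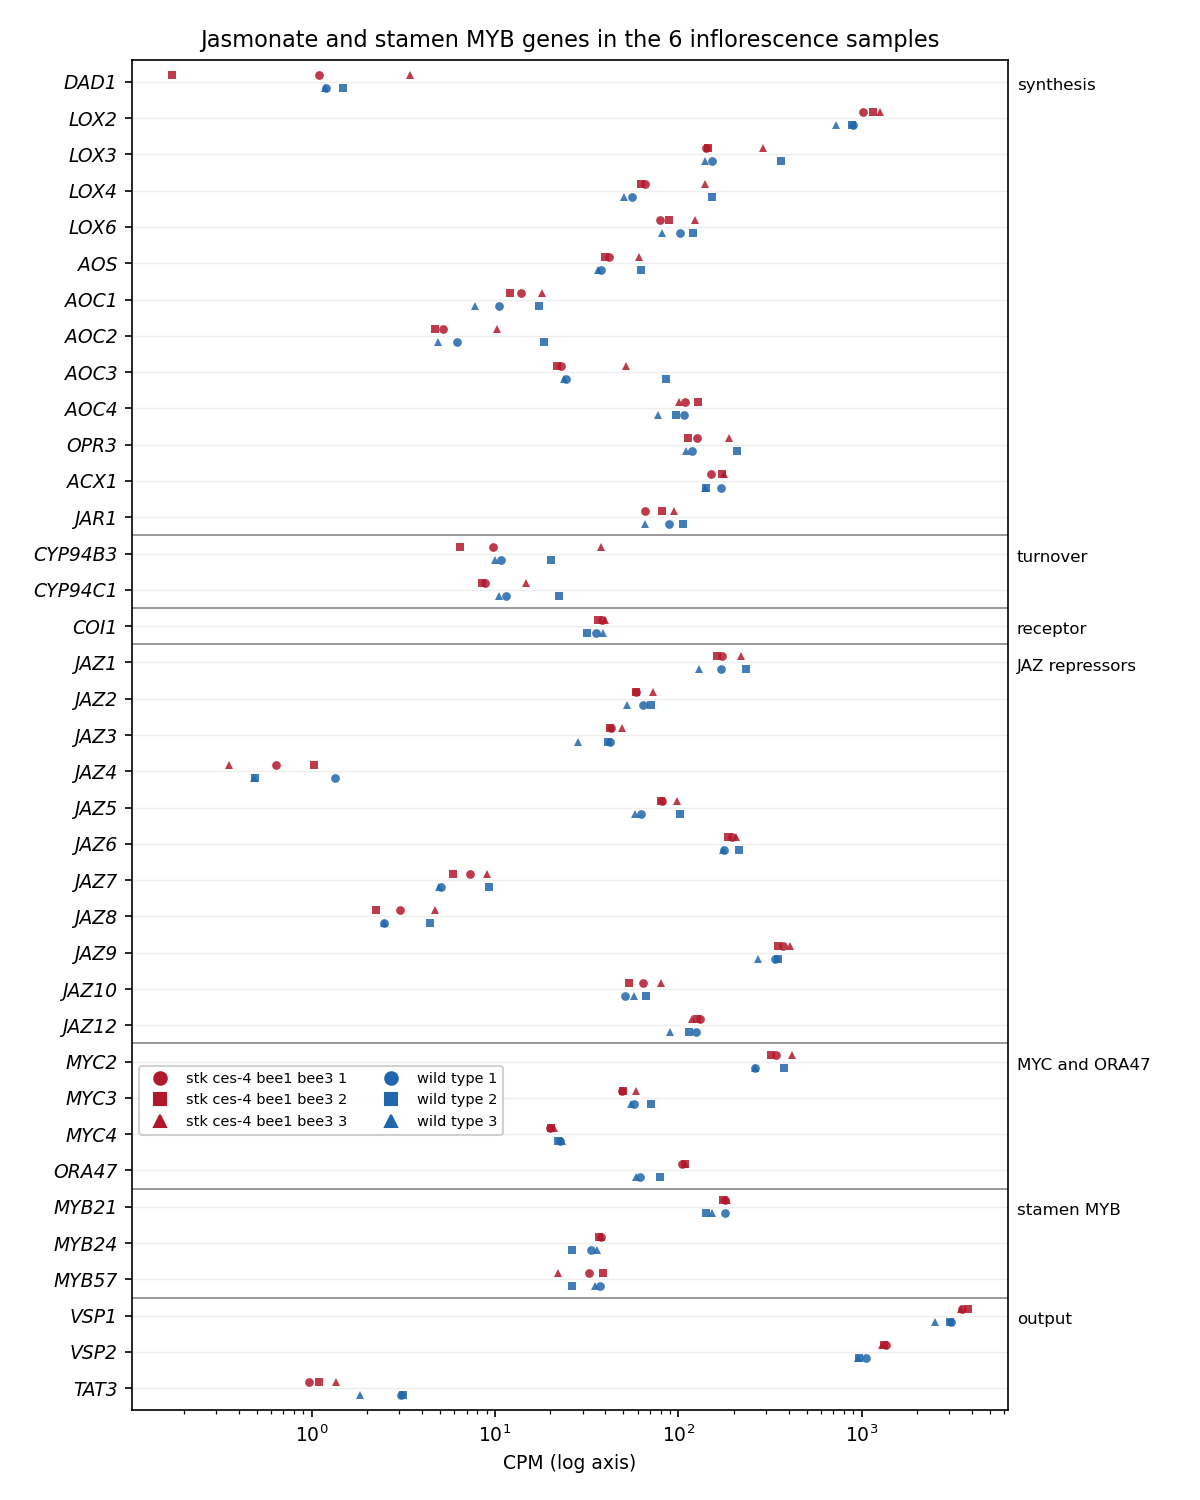
CPM on a log axis of the 37 genes in the 3 mutant samples (red, upper row of each gene) and 3 wild-type samples (blue, lower row), with circles, squares and triangles for replicates 1, 2 and 3 and genes grouped by role. *LOX3*, *LOX4*, *AOC2*, *AOC3* and *OPR3* show a red triangle and a blue square apart to the right, and *ORA47* shows 3 red points at 105 to 109 CPM to the right of all blue points.

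Levels over the 37 genes were compared per kilobase of annotated exon. *VSP1*, *VSP2*, *LOX2*, *JAZ9* and *JAZ12* held the first 5 places in both genotypes, with 2699 CPM per kilobase in the mutant and 2146 CPM per kilobase in wild type for *VSP1*. *ORA47* was in place 9 in the mutant, at 88.9 CPM per kilobase, and in place 13 in wild type, at 55.1 CPM per kilobase. *DAD1*, *TAT3* and *JAZ4* were the lowest in both genotypes, with *JAZ4* at 0.358 CPM per kilobase in the mutant and 0.408 CPM per kilobase in wild type.

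Other genes of the pathway were examined beside the 37, from lists of 12 synthesis genes, 10 turnover genes, 12 signalling genes, 5 output genes and 5 stamen partners of jasmonate that had values. Of these 44 genes, 1 was called, against 0.695% of all tested genes, and 8 had an unadjusted p under 0.05, against 9.31%. The called gene, *CORI3* (*AT4G23600*), encodes a cystine lyase induced by coronatine, a bacterial mimic of the hormone. It had 115, 143 and 113 CPM in the mutant replicates, against 76.5, 42.2 and 62.2 CPM in the wild-type replicates. All mutant samples were higher than all wild-type samples, and wild-type replicate 2 was the lowest sample. The log2 fold change was 1.06 (limma SE 0.19, adjusted p = 0.0487). It was 0.83 without wild-type replicate 2 (limma adjusted p = 0.0181) and 1.25 without wild-type replicate 1 (limma adjusted p = 0.0346). The call was lost without mutant replicates 1, 2 or 3 or wild-type replicate 3, with limma adjusted p of 0.174, 0.213, 0.104 and 0.131, and scaling all columns to equal totals gave 0.0526. It was also lost without the mean-variance trend (0.126), with a filter at 1 CPM (0.0529) and with a pseudocount of 0.1 CPM (0.0505), and *CORI3* was called in 6 of 15 alternative fits in all.

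The other 7 genes with an unadjusted p under 0.05 were not called. *JMT* (*AT1G19640*), which makes methyl jasmonate, had 35.9, 49.8 and 28.7 CPM in the mutant replicates, against 27.0, 25.0 and 24.5 CPM in the wild-type replicates, with a log2 fold change of 0.54 (limma SE 0.17, adjusted p = 0.318). *MYC5* (*AT5G46830*), a bHLH gene of stamen development, was low at 0.604 to 0.871 CPM in the mutant and 0.276 to 0.432 CPM in wild type. *OPR1* (*AT1G76680*), a reductase related to *OPR3*, had 19.5, 17.5 and 22.0 CPM in the mutant replicates, against 25.9, 66.2 and 24.1 CPM in the wild-type replicates. The log2 fold change was -0.80 (SE 0.32), and wild-type replicate 2 was 2.65 times the mean of the other wild-type samples. *IAR3*, an amidohydrolase gene, and *JR1*, a lectin gene, had log2 fold changes of 0.29 each, the terpene synthase gene *TPS11* of -0.20, and the defence gene *PR4* of -0.88. *PR4* was low, with 0.825, 0.230 and 0.504 CPM in the mutant replicates and 1.61, 0.678 and 1.94 CPM in the wild-type replicates. Its groups overlapped. In these lists mutant replicate 3 was the highest mutant sample for 28 of 44 genes and wild-type replicate 2 the highest wild-type sample for 17 of 44, against 34.8% and 36.6% of all tested genes.

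The number of called genes in the whole table was 148, and it depended on the samples used. It was 73, 76 and 108 without mutant replicates 1, 2 and 3, 61, 159 and 83 without wild-type replicates 1, 2 and 3, and 335 without wild-type replicate 2 and mutant replicate 3 together. Without those 2 libraries *JMT* and *CORI3* were called beside *ORA47*.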

How the data were processed

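RNA of 3 pooled mutant and 3 pooled wild-type inflorescence samples was sequenced with a directional kit. The authors mapped the reads to TAIR10 with bowtie2, estimated expression with RSEM and deposited CPM for each sample, scaled to an effective library size. The deposited columns of the authors' own comparison (log2 fold change, p-value and FDR) were not used. The table has 21801 rows, of which 2 without values were dropped. Low values were whole reads in 93.8% to 95.0% of cases (tolerance 0.1 read), so counts were not rebuilt and no count test was run.

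Genotypes were compared with limma 3.58.1 in R 4.3.3 (lmFit, and eBayes with trend) with genotype as the single term, two-sided, on log2(CPM + 0.5) for genes over 0.5 CPM in at least 3 samples. This scale understates changes of low genes. An exact permutation test of 3 against 3 samples cannot go below p = 0.1 and was not used. The script was tested on simulated data. Alternatives were upper quartile scaling, equal column totals, a filter at 1 CPM, no filter, pseudocounts of 0.1 and 1 CPM, a replicate block, no trend, and each sample left out. Leaving out wild-type replicate 2 and mutant replicate 3 together was added after seeing the data. P-values measure the spread between pools.

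Identifiers were matched to RefSeq TAIR10.1. *DGL*, *ORA59*, *PDF1.2A*, *PDF1.2B* and the tapetum marker *DYT1* were not analysed here. Values in every sample were given for genes of the 37 with an unadjusted p under 0.05, the stamen *MYB* genes, *COI1*, and the most abundant and the most variable gene of each role. Of the other jasmonate lists, genes with an unadjusted p under 0.05 were named. Genes beyond this rule were chosen after their values were seen. The 37 genes and all lists were chosen with earlier results of these data known.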

Additional observations from a re-analysis of the deposited data

How the results depend on the processing

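The counts of called genes were sensitive to the model and to single samples. With the replicate number as a block, 64 genes were called in the table, against 148 without it, and 63 of them were shared. No gene of the 37 (0) and no other jasmonate gene (0) was called with the block, where *ORA47* had a limma adjusted p of 0.0861. Same-numbered samples did not deviate together (r = -0.11, -0.16 and -0.10), and no sample correlated best with its own number, so the numbers were not taken as pairs. Without the mean-variance trend 0 of the 37 and 0 other jasmonate genes were called. *ORA47* stayed called under both other scalings, both filters and both pseudocounts. *CORI3* was not called with columns scaled to equal totals, a filter at 1 CPM or a pseudocount of 0.1 CPM, leaving 0 other jasmonate genes. Leaving out each sample in turn gave 61 to 159 called genes, 0 to 1 of the 37 and 0 to 1 other jasmonate genes. Without wild-type replicate 2 and mutant replicate 3 together, an alternative chosen after seeing the data, 335 genes and 2 other jasmonate genes were called.

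Directions of the 14 genes described in every sample by rule were kept in 201 fits and reversed in 8, all of genes not called. The replicate block, the trend setting and the filters leave a log2 fold change as it is, so fits with these settings could not reverse. The other scalings and pseudocounts used the same 6 samples. All reversals came from fits with samples left out, so the count of kept directions overstates their stability. When single samples were omitted, the log2 fold change of *CYP94B3* ran between -0.68 and 0.55 (-0.68 without mutant replicate 3, -0.08 without wild-type replicate 1, -0.14 without wild-type replicate 3), and it was -0.37 without both libraries. *DAD1* ran between -0.78 and 0.49 (0.49 without mutant replicate 2). *JAZ4* ran between -0.30 and 0.21 (0.12 without mutant replicate 3, 0.21 without wild-type replicate 1). *MYB57* ran between -0.28 and 0.12 (0.12 without mutant replicate 3). The cause was not tested. At 0.137 to 0.185 CPM for 3 reads, differences of *DAD1*, *JAZ4* and *TAT3*, and of *MYC5* and *PR4* in the other lists, rest on low values.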
